A study of Mus musculus with 35 samples.

Results

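Tmem119, Selplg, Gpr34, Slc2a5, Cd81, Olfml3, Sparc and Rnase4 were taken as a set of 8 genes associated with adult homeostatic microglia, out of 55401 genes in the count file, and were compared over the P6, P15 and 8 week libraries of CD45+ve microglia. The genes were given by name, with no threshold on the counts. All 8 were among the 17612 genes kept for testing. CD45+ve microglia came from the whole brain of wild-type C57BL/6 mice, dissociated and captured on a dish coated with antibody against CD45, a surface protein of all white blood cells, so the preparation can hold other CD45-bearing cells and carried-over RNA of brain cells. The 6 groups were 5 females and 6 males at postnatal day 6 (P6), 6 and 6 at P15 and 6 and 6 at 8 weeks, with 1 mRNA library per mouse and no treatment. The study removed 1 mouse as an outlier without naming it in its methods, and P6 female 6, which is missing from the mice it plotted, was left out here, so that the youngest age had 10 mice and the others 12 each. Library totals ran from 23316107 to 38965078 fragments, and each of the 8 genes had at least 1696 counts in every one of the 35 libraries.

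Microglia are the resident macrophages of the brain. They enter it in the embryo and take on their adult expression programme after birth, under signals from the brain such as TGF-beta and ligands of the CSF1 receptor. The genes of this homeostatic programme are the usual markers for telling mature microglia from other macrophages and are lowered in disease. Not all 8 encode surface proteins. Tmem119, a membrane protein marking microglia among brain cells, Selplg, the selectin ligand PSGL-1, Gpr34, a receptor for lysophosphatidylserine, Slc2a5, the fructose transporter GLUT5, and Cd81, a tetraspanin found on many cell types, do so. Olfml3, an olfactomedin-like glycoprotein, Sparc, a matrix-binding glycoprotein, and Rnase4, a ribonuclease, are secreted.

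On GRCm38 with GENCODE M21 the 8 genes lay on 7 chromosomes. Tmem119 (ENSMUSG00000054675) was at chr5:113793729-113800516 and Selplg (ENSMUSG00000048163) at chr5:113818536-113832644, both on the minus strand, 18019 bases apart with 1 annotated gene wholly between them. The other surface genes were Gpr34 (ENSMUSG00000040229) at chrX:13632089-13640858 on the plus strand, Slc2a5 (ENSMUSG00000028976) at chr4:150119283-150144169 on the plus strand and Cd81 (ENSMUSG00000037706) at chr7:143052739-143067934 on the plus strand. The secreted genes were Olfml3 (ENSMUSG00000027848) at chr3:103722222-103738001 on the minus strand, Sparc (ENSMUSG00000018593) at chr11:55394500-55423183 on the minus strand and Rnase4 (ENSMUSG00000021876) at chr14:51091077-51106151 on the plus strand. Rnase4 shared 219 of its 1637 exon bases with Ang on the same strand, so fragments there cannot be assigned to a single gene and its counts are uncertain to that extent. Cd81 shared 104 exon bases with R74862 on the opposite strand, which strand-specific counting separates. Gpr34 lay within Cask on the opposite strand without a shared exon base.

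Start windows are shown for the 5 members that had one in the RefSeq table (GRCm38.p6), because these genes rose at the same step. Each window holds 250 bases before and 50 after a RefSeq start, read 5′ to 3′ on the gene's strand. Capitals mark TATAAA or CCAAT, the only searched motifs found in these 5 windows.
Slc2a5, chr4:150119094-150119393, + strand: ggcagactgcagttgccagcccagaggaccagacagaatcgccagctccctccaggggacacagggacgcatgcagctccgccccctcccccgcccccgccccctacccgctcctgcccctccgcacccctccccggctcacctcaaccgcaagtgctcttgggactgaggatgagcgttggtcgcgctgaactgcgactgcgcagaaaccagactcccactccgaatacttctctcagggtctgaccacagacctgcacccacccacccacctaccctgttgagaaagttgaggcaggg
Cd81, chr7:143052500-143052799, + strand: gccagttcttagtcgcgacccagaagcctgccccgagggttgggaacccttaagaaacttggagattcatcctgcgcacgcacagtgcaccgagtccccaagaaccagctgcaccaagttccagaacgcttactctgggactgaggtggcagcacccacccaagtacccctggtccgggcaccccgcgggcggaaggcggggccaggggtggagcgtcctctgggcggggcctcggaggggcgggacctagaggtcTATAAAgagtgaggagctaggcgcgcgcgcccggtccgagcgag
Olfml3, chr3:103737952-103738251, - strand: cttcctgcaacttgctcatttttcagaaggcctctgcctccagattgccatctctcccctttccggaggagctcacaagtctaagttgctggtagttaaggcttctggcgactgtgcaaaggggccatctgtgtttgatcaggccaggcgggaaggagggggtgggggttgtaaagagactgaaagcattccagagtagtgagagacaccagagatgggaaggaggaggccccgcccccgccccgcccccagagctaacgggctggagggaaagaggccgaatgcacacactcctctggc
Sparc, chr11:55420031-55420330, - strand: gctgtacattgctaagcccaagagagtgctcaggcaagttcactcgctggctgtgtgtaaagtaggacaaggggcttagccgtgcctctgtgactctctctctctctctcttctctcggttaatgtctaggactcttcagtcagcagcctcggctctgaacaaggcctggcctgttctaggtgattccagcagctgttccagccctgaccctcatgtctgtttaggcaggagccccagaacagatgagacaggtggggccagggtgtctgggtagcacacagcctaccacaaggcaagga
Rnase4, chr14:51090827-51091126, + strand: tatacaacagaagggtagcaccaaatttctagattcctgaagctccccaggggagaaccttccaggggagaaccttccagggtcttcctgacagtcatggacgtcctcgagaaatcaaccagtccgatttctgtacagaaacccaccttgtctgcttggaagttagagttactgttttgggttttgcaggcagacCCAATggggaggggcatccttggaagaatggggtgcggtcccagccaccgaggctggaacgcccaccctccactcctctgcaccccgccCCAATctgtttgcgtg
All 6 motifs were searched on both strands, by letters alone. GAGGAA, the core of the site of the myeloid factor PU.1, was in none of the 6 windows that the table holds for these 5 genes (Rnase4 has 2) and in 28.3% of all 32851 windows of that length. TGACTCA (AP-1), GTCTAGAC (a SMAD palindrome) and GAAANNGAA (part of an interferon-stimulated response element) were also in none of the 6, against 5.2%, 0.213% and 8.56% of all windows. TATAAA was in the Cd81 window alone, 6 bases after the start, against 13.6% of all windows. CCAAT was at 2 places of the upstream Rnase4 window, 55 bases before and 34 after the start, against 37.4% of all windows. These matches describe the letters of these windows only.

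All 8 genes were higher at P15 than at P6, and in 6 of the 8 the ages did not overlap. The share of all genes whose ages do not overlap was not computed, so that count has no background. The question was when each gene reached its adult level. Levels are CPM, the counts relative to a TMM-scaled library total, and fold changes are from edgeR's quasi-likelihood fit over all 17612 genes, with Benjamini-Hochberg adjusted p (FDR). Because the samples are bulk RNA, fewer microglia in a preparation and less RNA of a gene per microglial cell cannot be told apart. Of all genes tested, 30.4% were higher at P15 at an FDR below 0.05, so the count of 8 of 8 is read against that share. The median log2 fold change was 1.76 over the 8 genes and -0.01 over all genes.

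**Figure D1:**
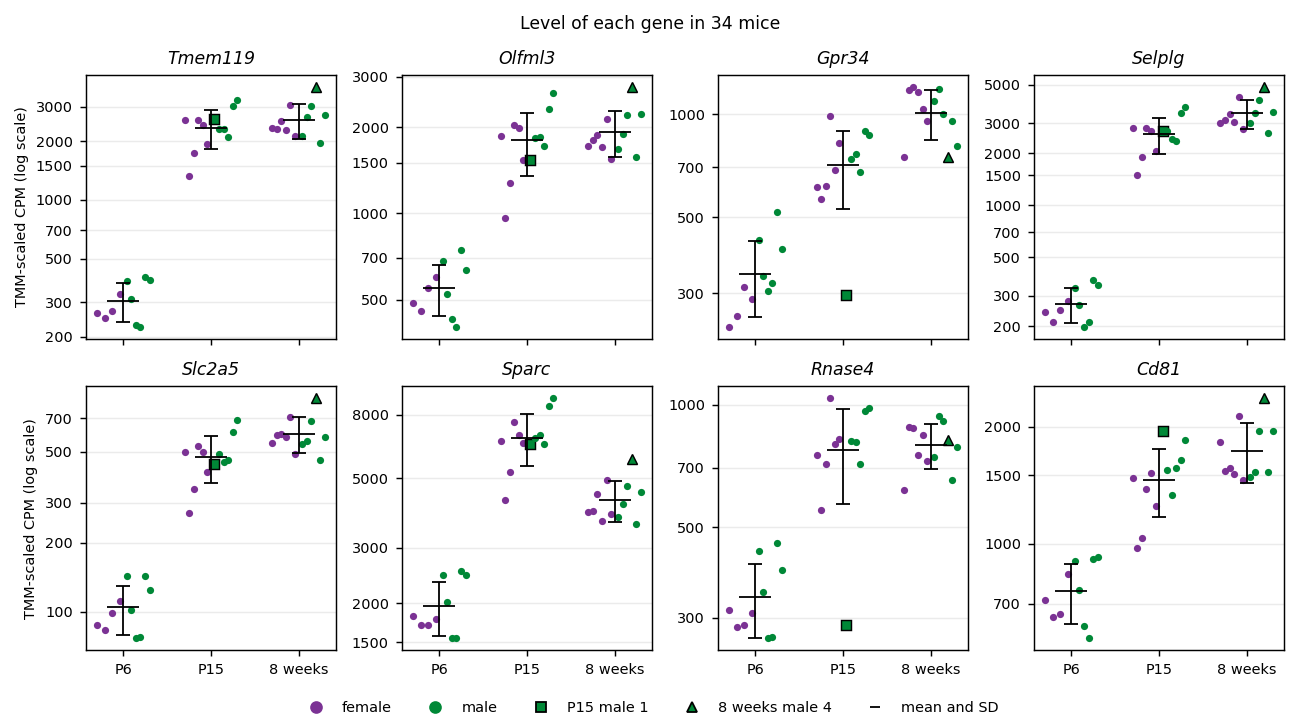
TMM-scaled CPM on a log axis in each of 34 mice at P6, P15 and 8 weeks, for each of the 8 genes; points are mice coloured by sex, bars are the mean and SD of an age, and P15 male 1 and 8 weeks male 4 have their own symbols. Only Gpr34 and Rnase4 overlap between P6 and P15, through P15 male 1, and Sparc alone has a lower mean at 8 weeks than at P15.

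Among the surface genes, Selplg and Tmem119 rose most. Selplg had 198 CPM in the lowest, 257 in the median and 369 in the highest mouse at P6, 1500, 2690 and 3706 at P15, and 2612, 3274 and 4886 at 8 weeks. Every P15 mouse was above every P6 mouse, while P15 and 8 weeks overlapped with 3 of the 12 adult mice above all P15 mice. Between P6 and P15 Selplg rose by 3.28 ± 0.15 on the log2 scale (SE, FDR = 2.79e-18, edgeR), 9.71-fold. Tmem119 went from 225, 291 and 405 CPM (lowest, median and highest) at P6 to 1329, 2356 and 3238 at P15 and 1959, 2431 and 3799 at 8 weeks. Its P6 mice lay below all others and its P15 and adult mice were intermixed, with 1 adult mouse above the P15 range. The first step of Tmem119 was 2.95 ± 0.15 (SE, FDR = 2.43e-17, edgeR), 7.74-fold. By rank of mean level among 17612 genes, Tmem119 moved from 469 at P6 to 37 at P15 and 33 at 8 weeks, and Selplg from 541 to 32 and 22.

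Slc2a5 had the third largest rise. It measured 76.6, 100 and 144 CPM (lowest, median and highest) at P6, 270, 474 and 686 at P15, and 463, 581 and 859 at 8 weeks. P6 did not overlap either later age, and 2 adult mice exceeded all P15 mice. Its first step was 2.20 ± 0.14 (SE, FDR = 1.00e-14, edgeR), 4.58-fold.

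Gpr34 and Cd81 had smaller first steps than these. Gpr34 had 240, 317 and 519 CPM at P6, 297, 714 and 988 at P15, and 749, 1020 and 1203 at 8 weeks. The low value at P15 was P15 male 1, whose next lowest companion had 564 CPM, and 7 of 12 adult mice were above all P15 mice. Its first step was 1.13 ± 0.14 (SE, FDR = 5.27e-08, edgeR). Cd81 had 571, 739 and 926 CPM at P6, 975, 1497 and 1944 at P15, and 1462, 1551 and 2370 at 8 weeks. P6 stayed below both later ages, and 4 adult mice were above all P15 mice. The first step of Cd81 was 0.95 ± 0.11 (SE, FDR = 7.15e-09, edgeR), 1.94-fold and the smallest of the 8.

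The 3 secreted genes rose at the same step. Sparc had 1544, 1800 and 2524 CPM at P6, 4274, 6656 and 9033 at P15, and 3582, 4031 and 5758 at 8 weeks. Its adult mice lay between the other ages, above all P6 mice, with 7 of 12 below every P15 mouse. Its first step was 1.81 ± 0.12 (SE, FDR = 9.90e-15, edgeR). Olfml3 had 402, 535 and 745 CPM at P6, 966, 1843 and 2633 at P15, and 1542, 1841 and 2769 at 8 weeks. Its medians at P15 and 8 weeks differed by less than the spread within either age, and both ages lay wholly above P6. The first step of Olfml3 was 1.71 ± 0.14 (SE, FDR = 2.24e-12, edgeR).

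Rnase4 had 268, 312 and 457 CPM at P6, 289, 806 and 1037 at P15, and 618, 802 and 937 at 8 weeks. P15 male 1 was again the low mouse at P15, within the P6 range, and the adult range lay inside that of P15. The first step of Rnase4 was 1.23 ± 0.15 (SE, FDR = 1.17e-08, edgeR).

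Tested against a minimum change of 2-fold (glmTreat in edgeR, where the study used limma's own threshold test), 5 of the 8 passed between P6 and P15, against 4.87% of all genes. These were Selplg, Tmem119, Slc2a5, Sparc and Olfml3. Rnase4 (FDR = 0.135), Gpr34 (FDR = 0.422) and Cd81 (FDR = 1) did not. Without P15 male 1, 6 passed.

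The second step, from P15 to 8 weeks, was smaller and was not shared. With TMM scaling Gpr34, Selplg, Slc2a5 and Cd81 rose, though Cd81 was at -0.02 with libraries scaled to pan-myeloid genes and none of the 4 was above 0 with neural markers as a covariate. Sparc fell in all 3 fits, and Tmem119, Olfml3 and Rnase4 did not pass the test. Of all genes, 24% were higher and 23.9% lower. The median log2 fold change was 0.20 over the 8 genes and 0.02 over all genes. None of the 8 passed the 2-fold test in this step, against 4.26% of all genes in either direction, while 5 had an unadjusted p below 0.05 without a fold threshold and limma-voom and DESeq2 each called 5 without it and 0 with it.

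The rises after P15 were 0.50 ± 0.13 for Gpr34 (log2 fold change and SE, FDR = 0.00264, edgeR), 0.41 ± 0.12 for Selplg (FDR = 0.00650), 0.35 ± 0.12 for Slc2a5 (FDR = 0.0192) and 0.26 ± 0.10 for Cd81 (FDR = 0.0340). Each of these overlapped between the ages. Without P15 male 1 the call of Slc2a5 was lost (FDR = 0.0566), and without 8 weeks male 4 that of Cd81 (FDR = 0.0634). The value was 0.14 ± 0.12 for Tmem119 (FDR = 0.341), 0.10 ± 0.12 for Olfml3 (FDR = 0.492) and 0.04 ± 0.13 for Rnase4 (FDR = 0.804), which turned to -0.07 without P15 male 1. Sparc fell by 0.66 ± 0.10 (FDR = 5.74e-06).

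These directions depended on what the libraries were scaled to. When libraries were scaled to equal levels of 10 pan-myeloid genes, which shifted the median of all genes by -0.27 in this step, Gpr34 and Selplg stayed higher at 8 weeks (0.28 and 0.16), against 8.40% of all genes, Slc2a5 was not called (0.10, FDR = 0.109), Cd81 was at -0.02 (FDR = 0.902), Tmem119 at -0.11 (FDR = 0.147) and Rnase4 at -0.18 (FDR = 0.0696). Olfml3 was then lower (-0.13, FDR = 0.0130) and Sparc too (-0.91), against 40.8% of all genes lower. In the first step all 8 stayed higher under this scaling, by 0.78 to 3.08, against 19.6% of all genes, with the median of all genes shifted by -0.19. Of the 10 pan-myeloid genes themselves, 2 rose between P6 and P15 and 2 between P15 and 8 weeks, none fell, and Laptm5, a lysosomal membrane protein of blood cells and the most abundant, had 2349 ± 515 CPM at P6, 3861 ± 930.1 at P15 and 3719 ± 569 at 8 weeks (mean ± SD, n = 10, 12 and 12).

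From P6 to 8 weeks all 8 genes were higher, against 37.8% of all genes. The log2 fold changes were 3.69 for Selplg, 3.10 for Tmem119, 2.54 for Slc2a5, 1.82 for Olfml3, 1.63 for Gpr34, 1.27 for Rnase4, 1.21 for Cd81 and 1.16 for Sparc, each with an SE between 0.11 and 0.15 and an FDR of at most 2.90e-09 (edgeR), and no gene overlapped between these ages. The share of all genes without such overlap was not computed. Of the 8, 7 passed the 2-fold test, against 11.5% of all genes, and Sparc did not (FDR = 0.0935). That count was 5 without P6 female 2 or without P6 female 3, and 3 with the neural covariate.

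**Figure D2:**
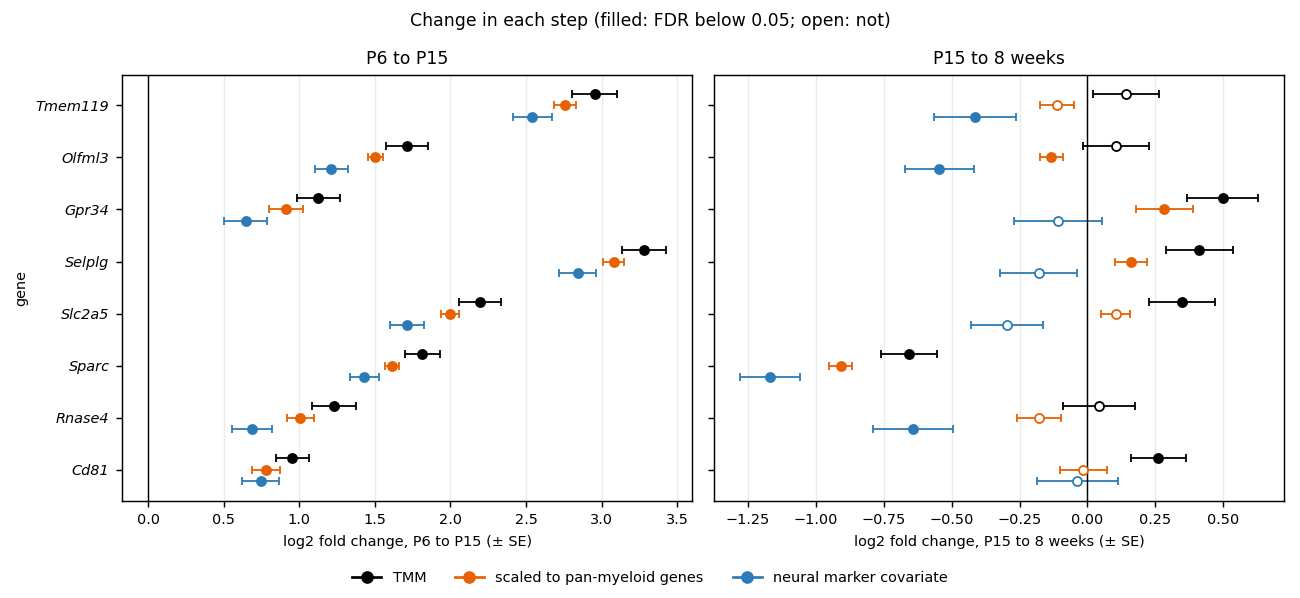
Log2 fold change with its SE for each gene from P6 to P15 (left) and from P15 to 8 weeks (right), from the TMM fit, the fit scaled to pan-myeloid genes and the fit with neural marker level as a covariate; filled points have an FDR below 0.05. All first-step values lie above 0 in the 3 fits, while in the second step the TMM fit has 7 of 8 values above 0 and the covariate fit has none.

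In all 8 genes the signed log2 change of the first step exceeded that of the second, against 17.6% of all genes. That share also holds genes whose second step, a fall, was the larger in size. The difference between the steps was 2.87 for Selplg, 2.81 for Tmem119, 2.47 for Sparc, 1.85 for Slc2a5, 1.61 for Olfml3, 1.19 for Rnase4, 0.69 for Cd81 (FDR = 0.00269, edgeR) and 0.63 for Gpr34 (FDR = 0.0341). Gpr34 was the least firm, and its call was lost without P6 female 1 (FDR = 0.0541) or P6 female 2 (FDR = 0.0525), with limma-voom (FDR = 0.0778), with library size scaling (FDR = 0.0647), with age alone (FDR = 0.0704) and with the replicate number as a block (FDR = 0.0577). As a share of the log2 change from P6 to 8 weeks with TMM scaling, P15 had reached 96.6% in Rnase4, 95.4% in Tmem119, 94.2% in Olfml3, 88.8% in Selplg, 86.3% in Slc2a5, 78.5% in Cd81 and 69.3% in Gpr34. In Sparc the share was 157%, since its P15 level exceeded the adult level. These shares depended on the fit. With pan-myeloid scaling they ran from 76.3% in Gpr34 to 229% in Sparc, with 3 other genes between 102% and 110% and Rnase4 at 122%. With the neural covariate every share was above 100%, from 105% in Cd81 to 182% in Olfml3 for the 5 genes called from P6 to 8 weeks, and Gpr34 was at 121%.

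Levels of different genes were compared per length, as reads per kilobase of merged exons (RPKM). At P6 the order was Sparc (516 ± 102, mean ± SD, n = 10), Cd81 (262 ± 46.2), Rnase4 (206 ± 42.4), Gpr34 (163 ± 41.0 RPKM), Tmem119 (132 ± 29.7), Olfml3 (89.4 ± 18.3), Selplg (63.2 ± 14.1) and Slc2a5 (30.8 ± 7.45). With merged exons, neighbours in this order kept it in all 10 mice, except that Gpr34 exceeded Tmem119 in 9. At P15 the order was Sparc (1783 ± 334, n = 12), Tmem119 (1011 ± 228), Selplg (606 ± 143), Cd81 (507 ± 100.5), Rnase4 (471 ± 123), Gpr34 (340 ± 87.1), Olfml3 (292 ± 72.1) and Slc2a5 (139 ± 32.3). Cd81 and Rnase4 could not be ordered there, as Cd81 was higher in 7 of 12 mice. At 8 weeks the order was Sparc (1127 ± 169, n = 12), Tmem119 (1111 ± 224), Selplg (802 ± 157 RPKM), Cd81 (603 ± 105), Rnase4 (486 ± 61.3), Gpr34 (481 ± 80.1), Olfml3 (313 ± 57.1) and Slc2a5 (176 ± 31.5). Sparc and Tmem119 could not be ordered at 8 weeks, since Sparc was higher in 7 of 12 mice, and neither could Rnase4 and Gpr34, with Rnase4 higher in 6 of 12. Tmem119 and Selplg had thus passed Cd81, Rnase4 and Gpr34, which were above them at P6. With the longest transcript as the length, Selplg stood above Tmem119 at 8 weeks (1481 against 1147 RPKM) and at P15 (1119 against 1044), and above Olfml3 at P6 (117 against 101 RPKM), so the order of these neighbours rests on the gene model.

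Agreement between the genes was first examined within each library, as the log2 ratio of each gene's counts to those of Tmem119, which no library scaling can move. Selplg followed Tmem119 most closely. Its log2 ratio was -0.18 ± 0.05 at P6 (SD, n = 10), 0.14 ± 0.05 at P15 and 0.42 ± 0.05 at 8 weeks (n = 12 each). The 3 ranges did not overlap, so Selplg gained on Tmem119 in both steps (by 0.32 and 0.27, each adjusted p = 1.56e-05, permutation test over 14 comparisons, resting on the smallest p that 100000 permutations can give). Every other gene lost against Tmem119 between P6 and P15 (each adjusted p = 1.56e-05, permutation test). The changes were -0.76 for Slc2a5, -1.14 for Sparc, -1.24 for Olfml3, -1.77 for Rnase4, -1.89 for Gpr34 and -1.99 for Cd81. These losses follow from the choice of Tmem119, whose log2 rise of 2.95 was the second largest of the 8. The median over all genes was -0.01, so most genes would lose against it.

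After P15 the ratios parted. Slc2a5 gained on Tmem119 by 0.21 (adjusted p = 2.80e-05, permutation test) and Sparc lost 0.80 of log2 ratio, from 1.54 ± 0.13 to 0.74 ± 0.09 (SD, n = 12 each, adjusted p = 1.56e-05). The change was -0.02 for Olfml3 (adjusted p = 0.671, permutation test), -0.05 for Rnase4 (adjusted p = 0.814), 0.11 for Cd81 (adjusted p = 0.110) and 0.39 for Gpr34 (adjusted p = 0.0636). Without P15 male 1 it was -0.19 for Rnase4 (adjusted p = 0.0506, permutation test) and 0.26 for Gpr34 (adjusted p = 0.10), and without 8 weeks male 4 it was -0.0047 (adjusted p = 0.990) and 0.48 (adjusted p = 0.00844). In all, 10 of the 14 comparisons passed, including every one between P6 and P15, and the share over all genes was not computed. The SD of the ratio within an age was 0.05 for Selplg and at most 0.14 for Olfml3, Slc2a5 and Sparc, against 0.09 to 0.17 for Cd81, 0.23 to 0.51 for Gpr34 and 0.11 to 0.52 for Rnase4. Without P15 male 1 the SD at P15 was 0.27 for Gpr34 and 0.19 for Rnase4.

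**Figure D3:**
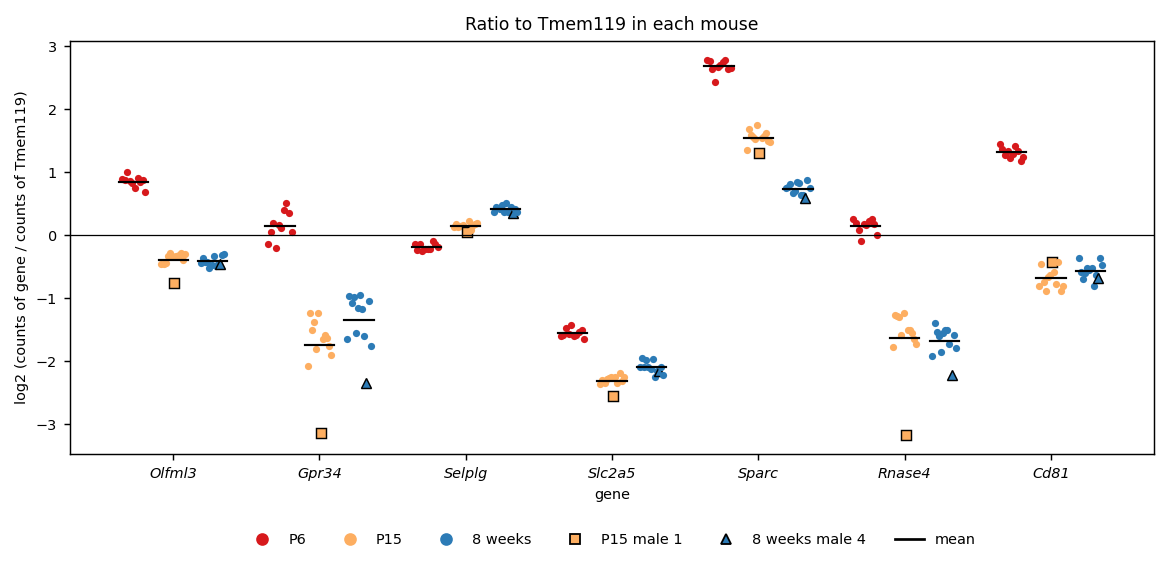
Log2 ratio of the counts of each of 7 genes to those of Tmem119 in each of 34 mice, coloured by age, with the mean of an age as a bar. Selplg climbs in both steps with a spread of 0.05 (SD) within an age, Sparc falls in both, and P15 male 1 and 8 weeks male 4 are each the lowest of their age for Gpr34 and Rnase4.

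Within an age, mice with more of a gene tended to have more of the others, and the pairs with Gpr34 or Rnase4 varied most with the age and the measure. Log2 CPM was correlated over the mice of each age for all 28 pairs, giving 84 relations, with p-values from 100000 permutations adjusted over the 84. By Pearson's r 59 relations passed, 27 of 28 at P6 and 16 of 28 at both P15 and 8 weeks, and by Spearman's rho 57 passed. The share among other pairs of genes was not computed, so these counts do not show agreement particular to the set. With library size in place of TMM scaling, 52 passed by r. The 15 pairs among Tmem119, Selplg, Slc2a5, Cd81, Olfml3 and Sparc all passed by r at each age, with r from 0.89 to 0.99 at P6, 0.74 to 0.99 at P15 and 0.83 to 0.98 at 8 weeks, although 2 of them were lost at P15 with library size scaling. By rho 3 of these 15 did not pass at P15, namely Cd81 with Olfml3, Sparc and Slc2a5. Without the 2 mice farthest from the median of the first gene, their r was 0.29, 0.50 and 0.61, against 0.74, 0.77 and 0.81 with them. The mice of an age share library scaling and the share of microglial RNA in each preparation, so these relations do not separate the genes from their libraries.

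Tmem119 and Selplg, neighbours on chromosome 5, had the highest r of any pair at each age. It was 0.99 at P6, 0.99 at P15 and 0.98 at 8 weeks (each adjusted p = 4.67e-05, permutation test), with rho of 0.99, 0.97 and 0.94 (each adjusted p = 0.000153) and r of 0.98, 0.98 and 0.97 without the 2 farthest mice. Of the 13 pairs with Gpr34 or Rnase4, 12 passed by r at P6, 1 at P15 and 1 at 8 weeks, while by rho 6, 7 and 2 passed, with no fall from P6 to P15. The pair that passed by r at P15 was Gpr34 with Rnase4, at r = 0.98 (adjusted p = 4.67e-05, permutation test) and rho = 0.97 (adjusted p = 0.000153), and r was 0.90 without the 2 farthest mice. At 8 weeks the pair by r was Gpr34 with Cd81, at r = -0.65 (adjusted p = 0.0339, permutation test) with rho = -0.34 (adjusted p = 0.303) and r = -0.46 without the 2 farthest mice, so this relation rests on them. Without P15 male 1, 12 of the 13 pairs passed at P15, and without 8 weeks male 4, 4 passed at 8 weeks.

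Those 2 libraries differed from the rest in base composition. For each library, the deviation of log2 CPM from the mean of its age was regressed over genes on the GC content of the transcript. The slope was 0.80 log2 units per 10 percentage points of GC in P15 male 1, against -0.36 to 0.09 in the other 11 P15 mice, and 0.48 in 8 weeks male 4, against -0.23 to 0.26 in the other 11. Gpr34 and Rnase4 had the lowest GC content of the 8 genes, 37.1% and 46.0%, and the others ran from 49.8% for Selplg to 59.1% for Tmem119. The r of log2 CPM with the library slope was -0.69 for Gpr34 and -0.65 for Rnase4 at P15, and -0.81 and -0.14 at 8 weeks. Cd81, at 50.3% GC, had the highest r at these ages, 0.78 and 0.89, above Tmem119 at 0.52 and 0.71. The linear relation of each gene to this slope was then removed from log2 CPM within each age. After that 80 of the 84 relations passed, including all 28 at P6 and all 28 at P15, where the lowest r was 0.87. At 8 weeks 24 passed, and Gpr34 with Cd81 was at r = 0.29 (adjusted p = 0.359, permutation test). For the 15 pairs without Gpr34 or Rnase4 the median r went from 0.955 to 0.966 at P6 and from 0.948 to 0.977 at P15. At 8 weeks it went down, from 0.939 to 0.878. With the slope as a covariate in the fit between ages, the calls of all 8 genes between P6 and P15 and of the 5 between P15 and 8 weeks were made in the same directions. These values were obtained after the low mouse was seen, and the part of base composition in the relations was not tested.

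**Figure D4:**
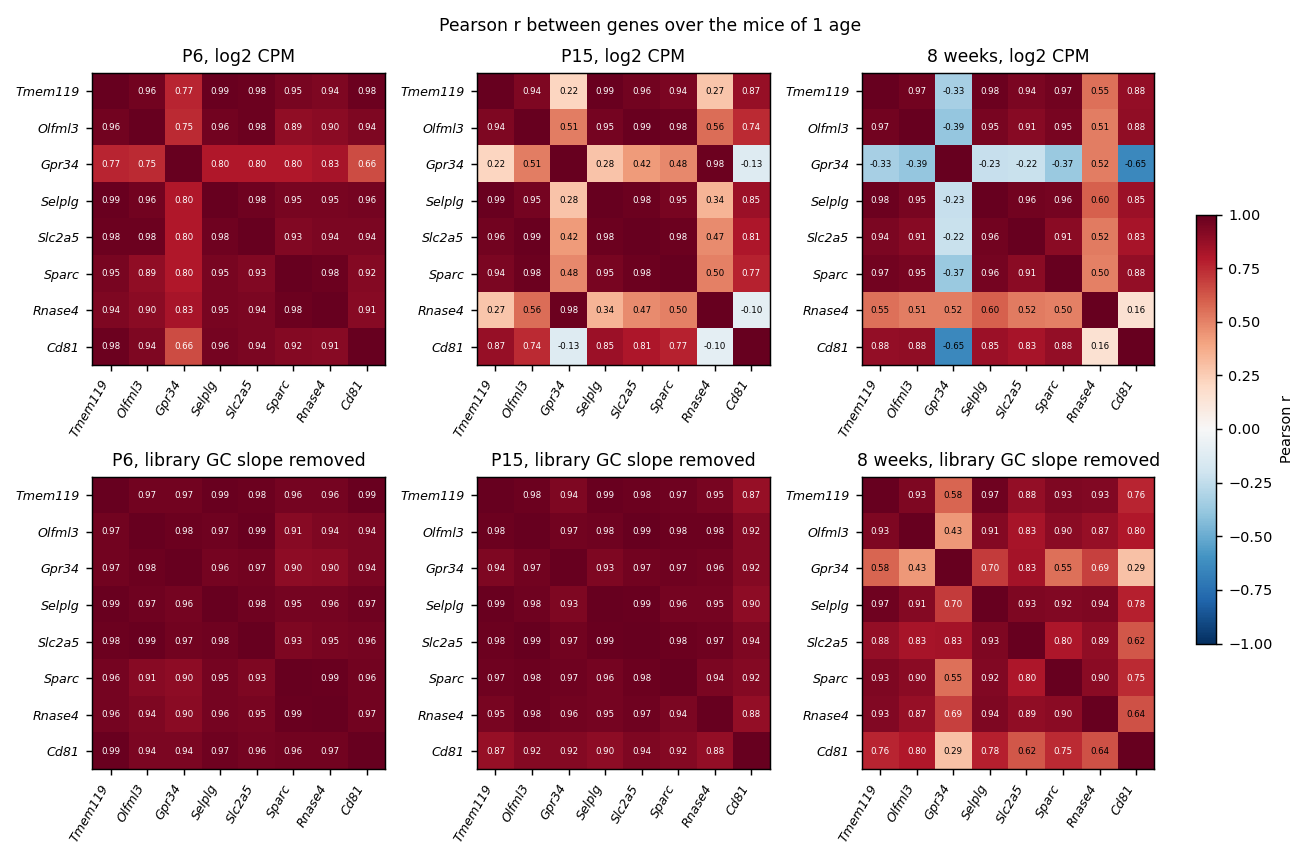
Pearson r of log2 CPM for each pair of the 8 genes over the mice of each age, 10 at P6 and 12 at each later age (upper row), and after the linear relation to the library's GC slope was removed (lower row). The pale and blue rows of Gpr34 and Rnase4 at P15 and 8 weeks in the upper row are at 0.88 or above at P15 and between 0.29 and 0.94 at 8 weeks in the lower row.

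Markers of neural cells changed with age too. All 9 progenitor genes fell in both steps, while of 6 neuronal genes 2 rose and 2 fell between P6 and P15 and 5 fell after it. The mean log2 CPM of 15 neuronal and neural progenitor genes was 4.75 to 6.47 at P6, 2.83 to 5.6 at P15 and 1.83 to 3.43 at 8 weeks, and P6 and 8 weeks did not overlap. The summed level ran from 276 to 926 CPM at P6 and from 48.4 to 212 at 8 weeks for the 6 neuronal genes, and from 661 to 2037 and from 89.0 to 206 for the 9 progenitor genes, none of them at 0 in any mouse. The most abundant were Tubb3, a tubulin of neurons, at 318 CPM at P6 and 10.7 at 8 weeks, and Tubb2b, a tubulin of young neurons, at 687 and 89.5 (means). Within P6 all 8 members were lower in mice with more of these markers (r from -0.97 to -0.79, rho from -0.93 to -0.71), and 11.6% of all genes had an r as low as the weakest of the 8. At P15 it was 7 of 8 by r and 6 of 8 by rho (r from -0.88 to -0.46), Cd81 missing by both and Tmem119 by rho, and 12.3% of all genes had an r as low as the weakest of those 7. At 8 weeks it was 0 of 8 by either (r from -0.51 to -0.24, with 0 at an unadjusted p below 0.05 by r and 1, Slc2a5, by rho), with p from 100000 permutations adjusted over 24 relations. With library size in place of TMM scaling, 7 passed by r at P6, 5 at P15 and 0 at 8 weeks. The median r was -0.88, -0.77 and -0.40 over the 8 genes at P6, P15 and 8 weeks and -0.05, -0.13 and -0.01 over all genes. Without the 2 mice farthest from the median of the gene, r ran from -0.93 to -0.61 at P6, from -0.92 to -0.08 at P15 and from -0.51 to 0.20 at 8 weeks.

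With this level as a covariate in the edgeR fit, all 8 genes were still higher at P15 than at P6, by 2.84 for Selplg, 2.54 for Tmem119, 1.71 for Slc2a5, 1.43 for Sparc, 1.21 for Olfml3, 0.74 for Cd81, 0.69 for Rnase4 and 0.64 for Gpr34, against 27.2% of all genes. In the second step none was higher and 4 were lower, against 19.9% and 19.8% of all genes. The 4 were Sparc (-1.17), Rnase4 (-0.64), Olfml3 (-0.55) and Tmem119 (-0.41, FDR = 0.0282). From P6 to 8 weeks 5 were still higher, against 25.3% of all genes, and Gpr34 (0.53, FDR = 0.0749), Sparc (0.26, FDR = 0.206) and Rnase4 (0.04, FDR = 0.888) did not. Because marker level and age move together in both steps, their parts cannot be told apart in any of these comparisons. The fit also used 1 slope for all ages, while the median r of the 8 genes went from -0.88 at P6 to -0.40 at 8 weeks.

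Sparc and Cd81 are also made by other brain cells, among them astrocytes and endothelial cells. The summed level of 8 astrocyte markers was 555 to 1423 CPM at P6, 974 to 8224 at P15 and 2048 to 6009 at 8 weeks, with 6 of 8 higher at P15 than at P6 and 1 lower at 8 weeks than at P15. Slc1a2, a glutamate transporter and the most abundant, had 232, 1664 and 1256 CPM (means). The 8 endothelial markers summed to 59.6 to 157, 93.6 to 288 and 124 to 329 CPM, 3 of 8 being higher at P15 than at P6 and 2, Flt1 (1.04) and Ly6c1 (0.89 on the log2 scale), higher at 8 weeks than at P15, and Pecam1, the most abundant, had 24.9, 63.2 and 61.0. No marker of either list was at 0 in any mouse, and their part in the levels of Sparc and Cd81 was not tested.

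Other marker lists were followed too. Oligodendrocyte lineage markers summed to 264 to 639, 871 to 3451 and 395 to 2001 CPM, led by Mbp, a myelin protein (167, 982 and 414, means). Of these 8 markers 5 rose and 2 fell between P6 and P15, the 2 being Olig2 and Pdgfra of the precursor stage, and 6 fell after it. Pericyte and fibroblast markers summed to 165 to 1196, 170 to 1099 and 154 to 951, led by Rgs5 (369, 261 and 154), and of these 6 markers 2 fell in each step and none rose. Monocyte and border macrophage markers summed to 724 to 1577, 289 to 1031 and 366 to 719, led by Mrc1, the mannose receptor (585, 376 and 228). Of these 9 markers 4 rose and 3 fell between P6 and P15, and 2 rose and 6 fell after it, the 2 being the monocyte genes Ccr2 (1.6) and Ly6c2 (1.96). Neutrophil and lymphocyte markers summed to 13.5 to 42.5, 14.1 to 73.5 and 32.4 to 216, led by S100a9 (8.65, 12.8 and 44.0), and of these 6 markers 4 rose in each step and none fell. The sums are in CPM at P6, P15 and 8 weeks, none of these markers was at 0 in any mouse, and their part in the members' levels was not tested.

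No member passed the test between the sexes. The male minus female log2 difference averaged over ages was between 0.10 (Rnase4) and 0.23 (Selplg), higher in males in all 8, although Gpr34 and Rnase4 turned to -0.06 and -0.10 with libraries scaled to pan-myeloid genes, and Rnase4 to -0.03 with the neural covariate. None passed (lowest FDR = 0.743, edgeR), against 0.0738% of all genes in either direction, and limma-voom and DESeq2 called 0. The unadjusted p of edgeR was below 0.05 in 4 (Tmem119, Selplg, Sparc and Cd81). It was below 0.05 in 0 with pan-myeloid scaling and in 0 with the neural covariate. The share of all genes at that unadjusted p was not computed. Within an age the difference ran from 0.12 to 0.49 at P6, from -0.03 to 0.37 at P15 and from -0.12 to 0.20 at 8 weeks, and the sexes overlapped in every gene at every age. The interaction of sex and age was called in 0 of 8 by edgeR, limma-voom and DESeq2 (lowest unadjusted p = 0.0910, Gpr34), against 0% of all genes.

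P6 female 6, left out above, was the lowest P6 mouse for all 8 genes. Its levels were 104.7 CPM for Tmem119, 94.2 for Selplg, 116 for Gpr34, 40.9 for Slc2a5, 565 for Cd81, 195 for Olfml3, 1171 for Sparc and 126 for Rnase4. These were 46.6% to 53.4% of the next lowest P6 mouse for 6 genes, 75.8% for Sparc and 99.0% for Cd81. Other markers moved with them. Pan-myeloid genes summed to 2153 CPM in this library, against 4495 to 7990 in the other P6 mice, while neuronal markers summed to 1533 (276 to 926 in the others), astrocyte markers to 2698 (555 to 1423) and oligodendrocyte lineage markers to 1883 (264 to 639). Their part in the low levels was not tested. With this mouse included, the 8 calls between P6 and P15, the 5 between P15 and 8 weeks and the 8 differences in timing were all made.

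A list of 26 other homeostatic microglia genes was followed over the same steps. It was chosen with earlier results of these data known, so its counts are descriptive and not independent support. All 26 rose between P6 and P15 (median log2 fold change 1.32), and 11 rose and 4 fell between P15 and 8 weeks. In 24 the signed log2 change of the first step exceeded that of the second at an FDR below 0.05 (edgeR). Signs count in that test, so Crybb1 passed it with 0.65 and then -1.22. Of all genes tested, 30.4% rose in the first step, 24% rose and 23.9% fell in the second, and 17.6% passed the timing test in that direction. From P6 to 8 weeks 25 were higher, against 37.8% of all genes, and 1 lower. The largest rises were those of Cst3, the protease inhibitor cystatin C (2.65), Csf3r, the receptor of granulocyte colony-stimulating factor (2.47), and Tgfbr1, a TGF-beta receptor (2.19). The lowest values were those of Ltc4s, leukotriene C4 synthase (0.62), Fcrls, an Fc receptor-like protein (0.49), and Crybb1, a crystallin (-0.57). These 3 rose to P15 and fell after it (-0.58, -0.34 and -1.22), as Sparc did. Selplg, Tmem119 and Slc2a5 had larger first steps than any of the 26, whose largest was 2.05.

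**Figure D5:**
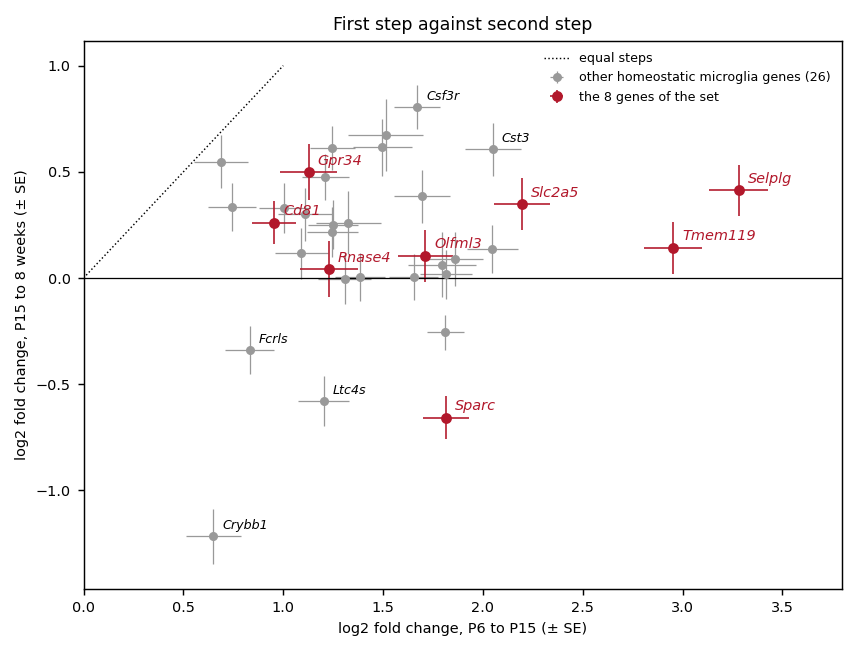
Log2 fold change from P6 to P15 (x axis) against that from P15 to 8 weeks (y axis), each with its SE, for the 8 genes (red) and 26 other homeostatic microglia genes (grey); the dotted line marks equal steps. All points lie right of 0, Selplg and Tmem119 farthest at 3.28 and 2.95, and Sparc lies among the points that fell in the second step, with Ltc4s, Fcrls, Crybb1 and Adgrg1.

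Genes with the most similar pattern were ranked by the root mean square difference of centred log2 CPM over the 34 mice, among 17604 genes outside the set. Of the genes named next, Slco2b1, Vsir and Sall1 are also on the list of 26. Nearest to the mean of the 8 were Slco2b1, an organic anion transporter (0.11 log2 units), Vsir, an immune checkpoint protein (0.11), and Eng, the TGF-beta co-receptor endoglin (0.13). The gene nearest to each member was Gp9 for Tmem119 (0.29), Slco4a1 for Selplg (0.23), Il13ra1 for Gpr34 (0.13), Tmem173 for Slc2a5 (0.11), Tapbp for Cd81 (0.13), Slco2b1 for Olfml3 (0.10), Serpinf1 for Sparc (0.14) and Sall1 for Rnase4 (0.14). Serpinf1 had the shape of Sparc, with 1.76 in the first step and -0.56 in the second. Within the set, Tmem119 and Selplg were nearest to each other (0.24), followed by Gpr34 and Rnase4 (0.26) and by Olfml3 and Slc2a5 (0.30).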

How the data were processed

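Raw counts per gene were deposited by the authors, who aligned directional paired-end mRNA reads to GRCm38/mm10 with STAR and counted fragments by strand with featureCounts in Subread; the submitters' processing notes also name fastp 0.20.0, and the annotation release is not given in the sources used here. Each mouse is 1 library, and p-values measure the spread between mice. No pair of libraries within a group was a copy (lowest chi-square per gene 12.8 over 85 pairs).

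Genes were named from GENCODE M21 (55141 of 55401 identifiers). A gene needed 0.5 CPM or more in 5 or more mice to be tested. Counts were fitted in R 4.3.3 with edgeR 4.0.16 (TMM, robust quasi-likelihood, 1 mean per age and sex group, glmQLFTest and glmTreat at 2-fold, two-sided), with limma 3.58.1 and DESeq2 1.42.0 as alternatives. Log2 CPM used a prior count of 2, and ratios added 0.5 to counts. Permutation tests (100000, two-sided) used Python 3.11.15, numpy 2.4.6 and scipy 1.17.1. Totals ran from 23316107 to 38965078 fragments, and intervals from such depth cover counting error only.

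The 8 genes, the lists and the tests were chosen with earlier results of these data known. Named genes were the 8, the 3 highest and 3 lowest of the other homeostatic list by change from P6 to 8 weeks, the nearest genes by pattern, and the most abundant gene of each marker list. CPM and RPKM were computed here from the deposited counts. The GC slope and the fits without P15 male 1 or 8 weeks male 4 were added after seeing the data. Protein sequences and miRNA libraries were not analysed here.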

Additional observations from a re-analysis of the deposited data

Results flagged for a closer look

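Of 48 groups of 4 to 6 mice (8 genes in 6 age and sex groups), 2 held a mouse far from the rest, by the gap to the nearest mouse over the range of the group on the log2 scale. Chance flags about 1 in 20 groups. Both were P15 male 1. Gpr34 was at 297 CPM there, with the other 5 males between 680 and 893 (ratio 0.752). Rnase4 was at 289 CPM, with the others between 717 and 983 (ratio 0.742). The same library had the steepest GC slope, and the part of base composition in these values was not tested. Without it, the first step was called for both genes.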

How the results depend on the processing

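Apart from the 2-fold threshold, all 8 first-step calls were made under every alternative run, and so were the 0 calls between sexes and for the interaction. The 2-fold threshold left 5 of 8 calls between P6 and P15, 0 of 5 between P15 and 8 weeks and 5 of 8 for timing. The neural covariate left 5 of 8 from P6 to 8 weeks and, for Selplg, Slc2a5, Gpr34, Cd81, Tmem119, Olfml3 and Rnase4, turned the second step to -0.18, -0.30, -0.11, -0.037, -0.41, -0.55 and -0.64. Pan-myeloid scaling turned it to -0.11 in Tmem119, -0.13 in Olfml3, -0.18 in Rnase4 and -0.015 in Cd81, and the sex difference to -0.061 in Gpr34 and -0.10 in Rnase4 (-0.029 with the neural covariate); the causes were not tested. Library size scaling shifted the median of all genes by -0.13 and -0.14 in changes from P6. Cd81 lost its second step with no filter on low counts (FDR = 0.0584) or with age alone (FDR = 0.0568). For timing, 7 of 8 were called with the replicate block, library size, limma-voom or age alone, Gpr34 being lost (FDR = 0.0577 under the block). Replicate numbers did not pair mice: over 80 same-number pairs the deviations correlated from -0.54 to 0.69, median 0.03, and the paired fit changed no other count of calls.

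Leaving out 1 mouse (each P6 female, P15 male 1 or 8 weeks male 4) gave 8 and 8 calls (lowest and highest) between P6 and P15, 4 and 5 between P15 and 8 weeks, 8 and 8 from P6 to 8 weeks, 7 and 8 for timing, 10 and 11 for ratios, 59 and 72 for pairs, 15 and 16 for neural level, and 0 and 0 for sex. Rnase4's second step ran from -0.066 to 0.052, and the r of Gpr34 with Tmem119 at 8 weeks from -0.33 to 0.018. With the GC slope removed 80 pairs passed, and the r of Gpr34 turned to 0.92 (P15) and 0.29 (8 weeks) with Cd81 and to 0.58 (8 weeks) with Tmem119. Without P15 male 1 the r of Gpr34 with Cd81 at P15 was 0.54. Library size scaling gave -0.055 for Gpr34 with Tmem119 at P15.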
